A study of Brachypodium distachyon with 4 samples.

Results

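The auxin carriers described here are 4 genes of the grass Brachypodium distachyon, taken by locus number from a table of 35125 genes: the efflux carriers SoPIN1 (BRADI_4g26300v3), PIN1a (BRADI_1g45020v3) and PIN1b (BRADI_3g59520v3), and the influx carrier AUX1 (BRADI_2g55340v3). All 4 had enough reads to be tested. The names are published locus assignments cited as background, since the table holds identifiers without names. Leaf transcripts were sequenced in 2 libraries of the mutant genotype jmj1-1 and 2 libraries of the wild-type genotype Bd21-3, and the labels give Bd21-3 as the line for both. Every sample was collected on day 17, at leaf stage 4, 10 h into a day with 20 h of light and 4 h of darkness. The prefix JMJ is given to genes of proteins with the JmjC domain, which is found in many histone demethylases. The labels state neither the nature of the jmj1-1 lesion nor its locus, so the transcript of the mutated gene did not check the genotypes. Leaf identity was not checked against marker genes for want of a table of names. The mutant is represented by a single allele, and the sources used here do not say whether a library came from 1 plant or from pooled plants.

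Auxin moves from cell to cell because carriers in the plasma membrane take it up and let it out. PIN proteins export auxin and are often placed on 1 face of the cell, so that their position sets the direction of flow, while AUX1 belongs to the AUX/LAX family of importers. In Brachypodium, SoPIN1 is known from epidermal convergence points where organs start, and PIN1a and PIN1b from inner tissues and forming veins. These carriers are best studied in growing tips and young organs. Background of this kind says where the carriers are known to act, and was not measured here.

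Of the 4 carriers, PIN1a was the single gene called in jmj1-1 leaves, where it rose about 1.40-fold. The call was lost in DESeq2 (adjusted p = 0.079) and in edgeR without jmj1-1 replicate 1 (adjusted p = 0.094). PIN1b and AUX1 lay within a few percent of the wild type, with narrow intervals. SoPIN1 had lower values in both mutant libraries, but on so few reads that an estimate of that size does not pass the test. The comparison asks which leaf transcripts differ in the mutant. Of all 21456 tested genes, 13.9% were called at an adjusted p under 0.05, with 6.13% higher and 7.75% lower in jmj1-1. With 4 genes, 1 call does not set the carriers apart from that background. The genotypes did not overlap for PIN1a and SoPIN1, 2 of the 4 carriers, against 50.9% of all tested genes. The median log2 fold change of the carriers was 0.014, against 0.0033 over all tested genes, and the median of its absolute size was 0.18, against 0.14.

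The libraries held 13825916 to 16520046 counted reads. All carriers together took 3113 and 2746 reads in jmj1-1 and 3019 and 2989 reads in Bd21-3. Values below are CPM, counts per 1000000 reads after TMM scaling of the libraries, and fold changes are jmj1-1 over Bd21-3 from edgeR's quasi-likelihood test with p-values adjusted by Benjamini and Hochberg's method across every tested gene. Since gene lengths were not at hand, CPM values are compared between genotypes for a given gene and not between genes. In whole leaves, fewer cells of a type and less RNA per cell cannot be told apart.

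PIN1a, the efflux carrier known from maturing veins, was counted 300 and 228 times in the jmj1-1 libraries and 204 and 191 times in the Bd21-3 libraries. After scaling this was 18.4 and 16.1 CPM in jmj1-1, against 12.6 and 12.1 CPM in Bd21-3. Both mutant libraries lay above both wild-type libraries, and the lower mutant value was 28.1% above the higher wild-type value. Groups that did not overlap were common, since for 25.5% of tested genes both jmj1-1 libraries were above both Bd21-3 libraries.

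The mean of PIN1a was 17.3 ± 1.6 CPM in jmj1-1 and 12.3 ± 0.38 CPM in Bd21-3 (SD, n = 2 each). Its log2 fold change was 0.49 (SE 0.12, 95% interval 0.26 to 0.72), a rise of 40.5% with an interval of 19.7% to 64.8%, and edgeR's adjusted p was 0.0013. Among the 1315 genes called higher in jmj1-1, 55.9% had a smaller log2 fold change than PIN1a, so its rise was close to the middle of such calls. After scaling for library size, the ratio of jmj1-1 replicate 1 to replicate 2 was 1.14 (exact 95% interval 0.956 to 1.36), which is within counting error.

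The call on PIN1a was lost without jmj1-1 replicate 1, the library with the higher value, where the log2 fold change was 0.39. Such a fit has less power, and fewer genes were called in it over the whole table. What cost PIN1a its call in that fit was not tested. Without jmj1-1 replicate 2, a fit with as few libraries, the log2 fold change of PIN1a was 0.58 and the call was kept. DESeq2 gave almost the same log2 fold change, 0.49, with a wider SE of 0.18 and an adjusted p of 0.079, and did not call the gene. DESeq2 called 5.98% of the same genes.

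**Figure D1:**
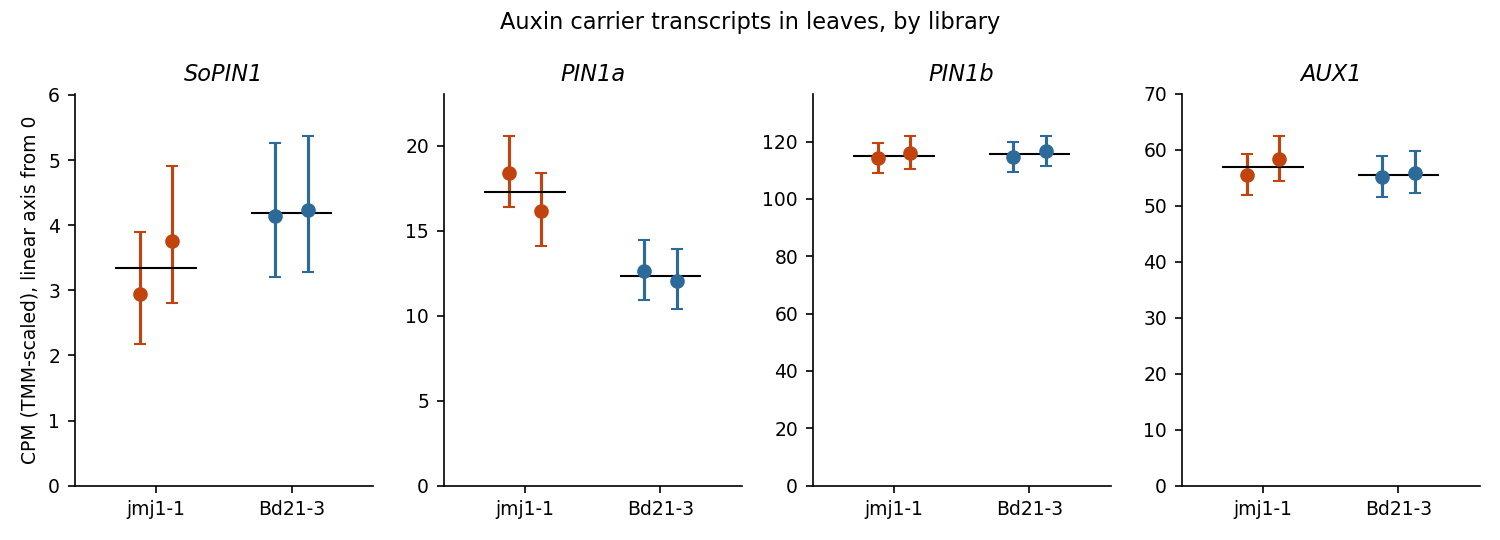
CPM of each carrier (linear axes from 0, each with its own scale) in the 2 jmj1-1 and the 2 Bd21-3 libraries. Points are libraries, bars are exact 95% Poisson intervals of the reads, and black lines are genotype means. For PIN1a the jmj1-1 libraries, at 18.4 and 16.1 CPM, sit above the Bd21-3 libraries, at 12.6 and 12.1 CPM. Its bars for jmj1-1 replicate 2 (14.1 to 18.4 CPM) and Bd21-3 replicate 1 (10.9 to 14.5 CPM) overlap slightly. For SoPIN1 the jmj1-1 points sit below the Bd21-3 points, with bars that overlap widely.

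PIN1b, the paralogue of PIN1a, was read 1861 and 1640 times in jmj1-1, against 1856 and 1846 times in Bd21-3. These correspond to 114.1 and 116.1 CPM in jmj1-1, against 114.7 and 116.6 CPM in Bd21-3. The genotypes overlapped, and the lowest value was that of jmj1-1 replicate 1 and the highest that of Bd21-3 replicate 2. The mean was 115.1 ± 1.4 CPM in jmj1-1 and 115.6 ± 1.4 CPM in Bd21-3 (SD, n = 2 each).

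The log2 fold change of PIN1b was -0.0071 (SE 0.050, 95% interval -0.11 to 0.094, edgeR's adjusted p = 0.96). On the linear scale the interval runs from -7.20% to 6.71%. Only 3.09% of tested genes had a log2 fold change smaller in size. Its sign is not established, since it turned positive with library totals as the scaling (0.047) and without jmj1-1 replicate 1 or Bd21-3 replicate 2 (0.0061 and 0.0053).

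AUX1, the importer, was counted 904 and 825 times in jmj1-1, against 892 and 885 times in Bd21-3. It was at 55.4 and 58.4 CPM in jmj1-1, against 55.1 and 55.9 CPM in Bd21-3. The genotypes overlapped, and the highest value was that of jmj1-1 replicate 2. The mean was 56.9 ± 2.1 CPM in jmj1-1 and 55.5 ± 0.58 CPM in Bd21-3 (SD, n = 2 each), a log2 fold change of 0.035 (SE 0.063, 95% interval -0.092 to 0.16, edgeR's adjusted p = 0.82). The interval reaches from -6.20% to 11.8%, and with TMM factors squared the sign turned (-0.019).

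SoPIN1, the epidermal efflux carrier of organ initiation, had the fewest reads, with 48 and 53 in the jmj1-1 libraries and 67 and 67 in the Bd21-3 libraries. It was at 2.94 and 3.75 CPM in jmj1-1, against 4.14 and 4.23 CPM in Bd21-3. Both mutant libraries lay below both wild-type libraries, as they did for 25.3% of tested genes. The mean was 3.35 ± 0.57 CPM in jmj1-1 and 4.19 ± 0.067 CPM in Bd21-3 (SD, n = 2 each).

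The log2 fold change of SoPIN1 was -0.33 (SE 0.23, 95% interval -0.79 to 0.12) and did not pass the test (edgeR's adjusted p = 0.40). On the linear scale the interval runs from -42.1% to 8.81%. The value depended on the mutant library used, at -0.16 without jmj1-1 replicate 1 and -0.50 without jmj1-1 replicate 2. Summed over libraries and scaled for library size, the ratio of jmj1-1 to Bd21-3 was 0.793 (exact 95% interval 0.606 to 1.03, counting error only).

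The SE of each carrier, which holds more than counting error, set how small a change could be called. With the SE of each gene, an estimated log2 fold change of 0.14 would have been needed for PIN1b to be called, 0.18 for AUX1, 0.32 for PIN1a and 0.64 for SoPIN1, which are folds of 1.10, 1.13, 1.25 and 1.55. An estimate for SoPIN1 as large as that of PIN1a would therefore not have been called with the SE of SoPIN1. The SE was 1.20 times the counting error for SoPIN1 and for PIN1a, 1.30 times for AUX1 and 1.48 times for PIN1b. Within each genotype the ratio between replicates had an exact interval that included 1 for every carrier.

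**Figure D2:**
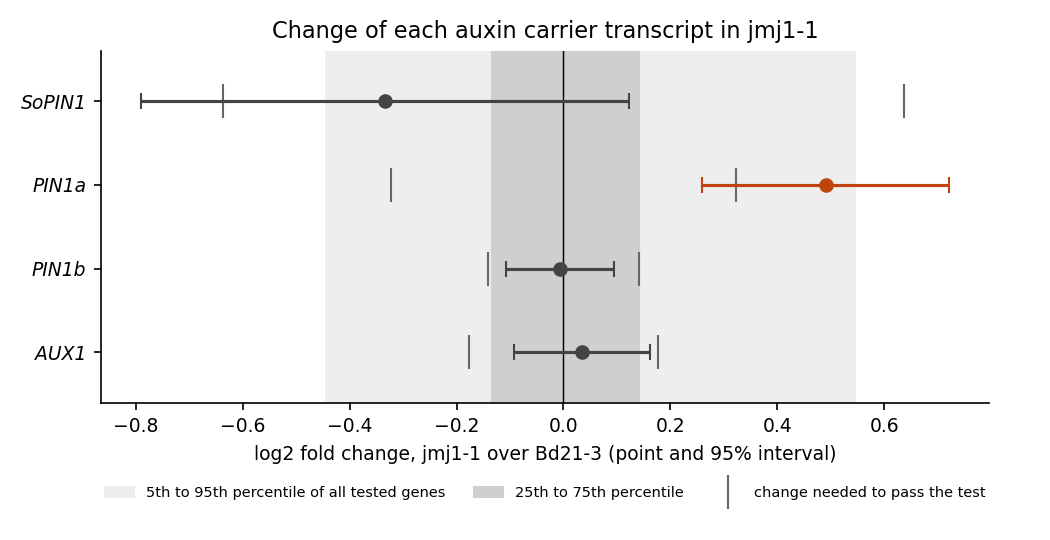
Log2 fold change of each carrier, jmj1-1 over Bd21-3 (points), with its 95% interval from edgeR's quasi-likelihood fit (bars). Paired ticks mark the estimate each gene needed to be called, and grey bands show the 5th to 95th and 25th to 75th percentiles of all tested genes. PIN1a, at 0.49, is the carrier beyond its ticks, which lie at 0.32 on either side of 0.

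A ratio of reads between carriers within a library does not depend on how libraries are scaled, and its change between genotypes does not depend on gene length. For every read of PIN1b there were 0.161 and 0.139 reads of PIN1a in the jmj1-1 libraries, against 0.110 and 0.104 in the Bd21-3 libraries. PIN1a thus gained on its paralogue in both mutant libraries, by 0.49 on the log2 scale. PIN1a had 6.20 and 4.27 reads per read of SoPIN1 in jmj1-1, against 3.03 and 2.84 in Bd21-3, a log2 difference of 0.81. Against AUX1 the ratio was 0.332 and 0.277 in jmj1-1 and 0.229 and 0.216 in Bd21-3, a log2 difference of 0.45.

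PIN1b and AUX1 kept nearly the same ratio, at 2.06 and 1.99 PIN1b reads per AUX1 read in jmj1-1, against 2.08 and 2.09 in Bd21-3, a log2 difference of -0.042. Leaving out jmj1-1 replicate 1 gave -0.068, and leaving out its replicate 2 gave -0.017. In an exact permutation test over libraries, two-sided, every pair had p = 0.333, also after adjustment over the 6 pairs, which are built from 4 genes and are not independent. That is the smallest p that 2 libraries against 2 can give, so the ratios are a description.

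The difference between the fitted log2 fold changes of PIN1a and PIN1b was 0.50, with a 95% interval of 0.25 to 0.75 from their SEs, taking the genes as independent. It was 0.82 (0.31 to 1.33) for PIN1a and SoPIN1 and 0.46 (0.19 to 0.72) for PIN1a and AUX1. The intervals of the other pairs included 0, with -0.042 (-0.20 to 0.12) for PIN1b and AUX1, 0.33 (-0.14 to 0.79) for PIN1b and SoPIN1, and -0.37 (-0.84 to 0.10) for SoPIN1 and AUX1. These intervals are not adjusted for 6 pairs, and the rise of PIN1a was known when the pairs were chosen.

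**Figure D3:**
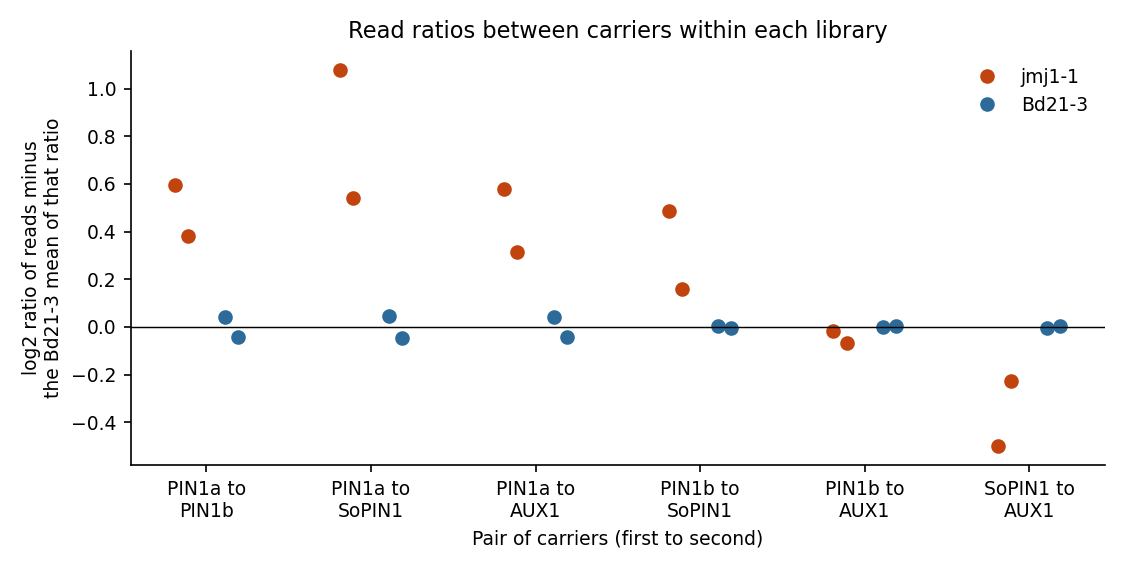
Log2 ratio of the reads of the first carrier to those of the second within each library, minus the Bd21-3 mean of that ratio, for the 6 pairs. Points are the 2 jmj1-1 and the 2 Bd21-3 libraries. The pairs led by PIN1a are shifted upwards in jmj1-1 by 0.49, 0.81 and 0.45 on average, while PIN1b to AUX1 shifts by -0.042.

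As a share of the reads of all 4 carriers, PIN1a took 9.64% and 8.30% in the jmj1-1 libraries, with exact 95% intervals of 8.62% to 10.7% and 7.30% to 9.40%. In the Bd21-3 libraries it took 6.76% and 6.39%, with intervals of 5.89% to 7.71% and 5.54% to 7.33%. The interval of jmj1-1 replicate 2 thus overlapped those of both wild-type libraries slightly, and that of jmj1-1 replicate 1 did not. PIN1b made up 59.8% and 59.7% of the carrier reads in jmj1-1, against 61.5% and 61.8% in Bd21-3. The summed level of the carriers was 190.9 and 194.4 CPM in jmj1-1, against 186.5 and 188.9 CPM in Bd21-3.

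The log2 fold changes of SoPIN1 and PIN1a kept their signs under each of the 15 other settings tried, which covered scaling, filters, tools, a replicate term and leaving out each library. PIN1a ranged from 0.39 to 0.58 and SoPIN1 from -0.50 to -0.16. PIN1b ranged from -0.061 to 0.047 and AUX1 from -0.019 to 0.088. None of PIN1b, AUX1 or SoPIN1 was called under any of those settings, and PIN1a was called under 13 of the 15.

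**Figure D4:**
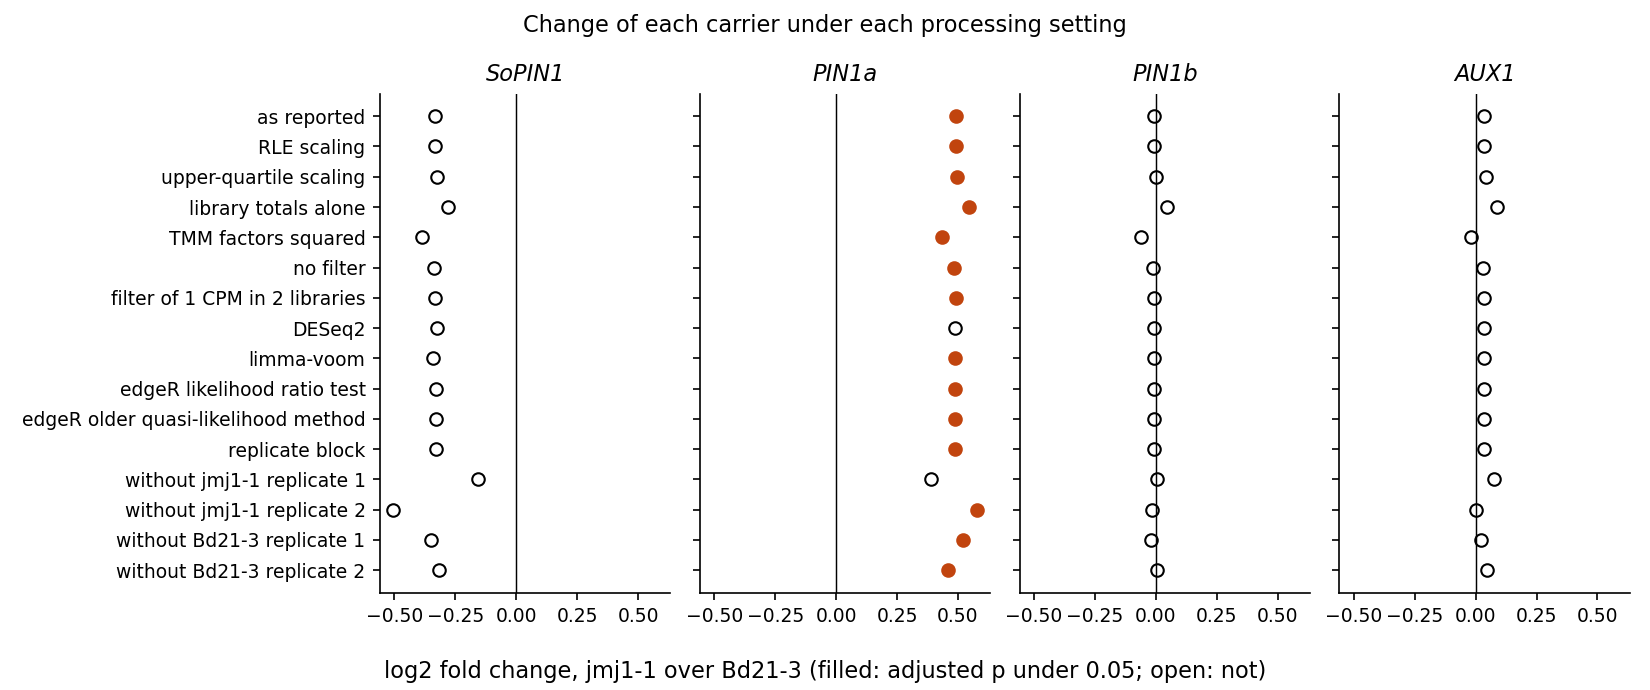
Log2 fold change of each carrier, jmj1-1 over Bd21-3, as reported and under 15 other settings (rows). Filled points have an adjusted p under 0.05 and open points do not. PIN1a is open in DESeq2 and without jmj1-1 replicate 1, and the other carriers are open in every row.

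The carriers lie on 4 different chromosomes by their locus numbers, PIN1a on chromosome 1, AUX1 on chromosome 2, PIN1b on chromosome 3 and SoPIN1 on chromosome 4. Around each, the 10 tested loci before and the 10 after it in locus order were examined. Of the 20 around PIN1a, 1 was called higher and 2 lower, and the median log2 fold change was -0.051. The loci next to PIN1a were at -0.23 (edgeR's adjusted p = 0.0037) and -0.064 (0.58) on the log2 scale, so neither was higher with it. Around PIN1b 1 of 20 was called, lower, and around AUX1 3 of 20 were called, all higher. Of those near AUX1, chosen after their values were seen, the ninth locus after it had 16521 reads in jmj1-1 and 6486 in Bd21-3 (log2 fold change 1.42, edgeR's adjusted p = 6.9e-37), and the fourth before it had 19 reads in jmj1-1 and 2 in Bd21-3.

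SoPIN1 had 6 called loci among its 20 neighbours, 3 higher and 3 lower, and its direct neighbours were not called (log2 fold changes of 0.0014 and 0.25). A pair of these neighbours, likewise chosen after their values were seen, were nearly silent in 1 genotype. The eighth locus before SoPIN1 had 21 reads in jmj1-1 and 0 in Bd21-3, and the seventh after it had 2 reads in jmj1-1 and 98 in Bd21-3. Of all 80 neighbours, 16.3% were called, against 13.9% of all tested genes.

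**Figure D5:**
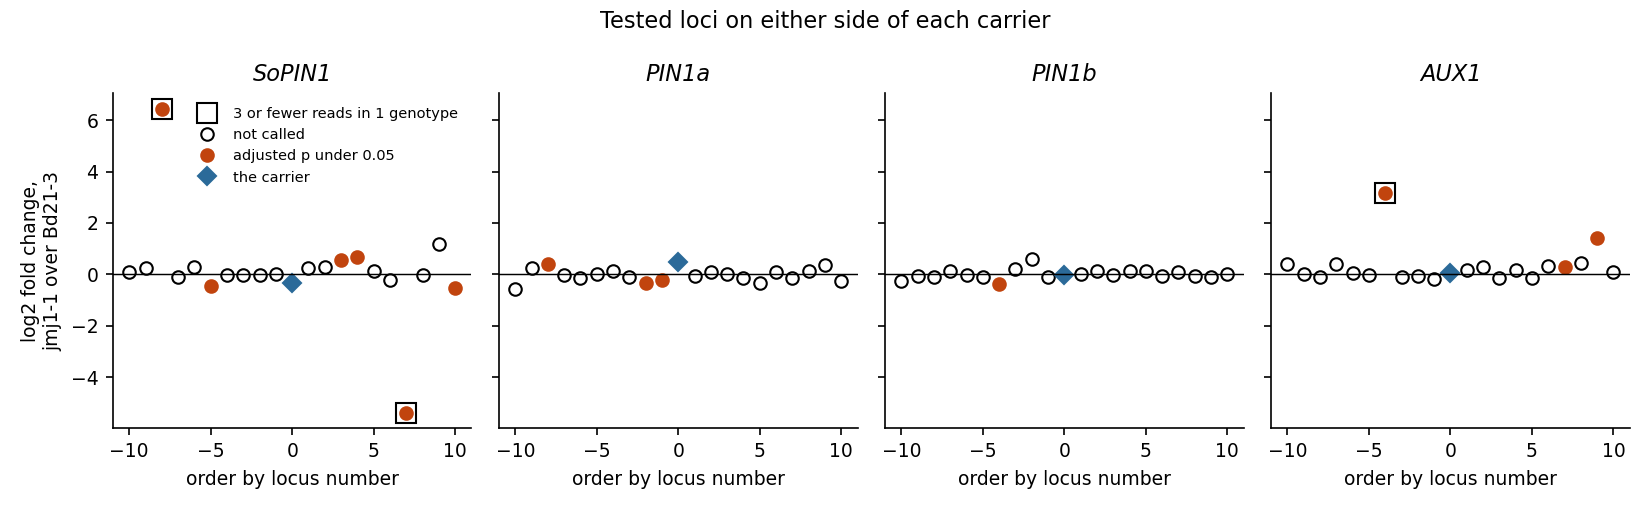
Log2 fold change, jmj1-1 over Bd21-3, of the 10 tested loci on either side of each carrier in locus order (circles, filled where the adjusted p was under 0.05) and of the carrier itself (diamond). Squares mark loci with 3 or fewer reads in 1 genotype, whose fitted values depend on the prior count and are no bound. The loci beside PIN1a, at -0.23 and -0.064, do not share its rise of 0.49.

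Likeness of pattern was measured as the Euclidean distance between log2 CPM values of the 4 libraries, each gene centred on its own mean. Nearest to PIN1a was BRADI_4g14260v3, at a distance of 0.0062, with 12.1 and 10.5 CPM in jmj1-1 and 8.22 and 7.90 CPM in Bd21-3. Within a distance of 0.1 there were 47 genes for PIN1a and 50 for SoPIN1, whose nearest gene was BRADI_5g27270v3 (distance 0.011). PIN1b and AUX1, being almost flat, had 2824 and 2378 genes that close, with BRADI_4g12930v3 and BRADI_3g28220v3 the nearest (distances 0.0027 and 0.0034). The carriers themselves were spread out by this measure, at 0.51 between PIN1a and PIN1b and 0.88 between PIN1a and SoPIN1, except for PIN1b and AUX1 at 0.055. With 4 libraries such distances describe these libraries alone.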

How the data were processed

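The authors deposited whole-number read counts per gene, 1 column per library, without normalisation, as its header and values show. Per the submitters' processing notes, cutadapt, HISAT2, SAMtools and featureCounts were used. RNA was made into stranded mRNA libraries, per the labels' protocols. The sources used here give no genome build, annotation, strand setting or handling of multi-mapping reads, so reads of antisense or overlapping genes and of close relatives could have been shared or lost.

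Titles gave the groups and replicate numbers. Nothing in the labels says that replicates were separate plants, and their p-values cover just the spread among these libraries, possibly technical. The replicates were not copies (chi-square per degree of freedom 1.85 in jmj1-1 and 2.41 in Bd21-3). The test was edgeR 4.0.16 under R 4.3.3 (filterByExpr defaults, TMM, quasi-likelihood F-test in its newer form, Benjamini-Hochberg adjustment over 21456 genes, threshold 0.05). SEs are the absolute log2 fold change over the square root of F. The variability behind them was estimated with information shared across genes, at 58.0 degrees of freedom for each carrier. The intervals thus do not rest on the spread of a carrier's own replicates alone. Exact intervals cover counting error only. Read ratios had 0.5 reads added to each count, and log2 CPM for distances a prior count of 2. The test was checked on simulated counts. Alternatives were other scalings, filters and tools (DESeq2 1.42.0, limma 3.58.1, edgeR's likelihood ratio and older quasi-likelihood tests), a replicate block and each library left out.

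The carriers, lists and tests were chosen with earlier results of these data known. The named genes are the carriers, and for each the gene nearest in pattern. RefSeq's table for Brachypodium_distachyon_v3.0 matched 0 of the identifiers, so other auxin genes, leaf markers, gene lengths and sequences were not analysed here.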

Additional observations from a re-analysis of the deposited data

How the results depend on the processing

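PIN1a kept its direction under every alternative and lost its call in DESeq2 (log2 fold change 0.49, adjusted p = 0.079) and without jmj1-1 replicate 1. Its adjusted p lay between 2.8e-04 and 0.094 over the alternatives. Leaving out 1 library gave 0.39 to 0.58 for PIN1a and -0.020 to 0.0061 for PIN1b. PIN1b turned to 0.047 with library totals alone, and AUX1 to -0.019 with TMM factors squared. The count of calls over the whole table, 2978 (1315 higher and 1663 lower), was 1788 without the filter (746 and 1042), 1283 in DESeq2 (515 and 768) and 1954 at an adjusted p of 0.01 (837 higher). Library totals alone gave 2041 higher calls, which raised the share of calls that were higher to 64.1% from 44.2%, and TMM factors squared lowered it to 28.1%. Leaving out 1 library gave 1824 to 2847 calls (767 to 1243 higher, 1035 to 1604 lower). A fit without 1 library has less power and takes the lone library to vary like the other genotype, and the stricter threshold lowers the count by construction. For the remaining settings, the cause was not tested. The replicate block gave 3140 calls, kept PIN1a at 0.49 (adjusted p = 4.2e-04) and changed no call of a carrier. Deviations of same-numbered libraries correlated at -0.018, and the labels give no pairing. The 6 read ratios between carriers kept their direction with 0 reads added, with summed reads and without each library. Without jmj1-1 replicate 1 or 2, PIN1b to SoPIN1 (0.32) was 0.16 or 0.48, SoPIN1 to AUX1 (-0.37) was -0.23 or -0.50 and PIN1b to AUX1 (-0.042) was -0.068 or -0.017. The 101 and 134 reads of SoPIN1 in jmj1-1 and Bd21-3 limit what can be said of it.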
